A study of Homo sapiens with 6 samples.

Results

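The 10 genes described here, MX1, MX2, IFI6, IFI27, IFI35, IFI44, IFI44L, BST2, XAF1 and RSAD2, encode antiviral and related effector proteins whose transcripts interferon induces. They were chosen by name, and each matched 1 row, 10 of the 57820 human gene rows in the table. RNA of HCT116, a human colorectal cancer cell line, was measured in 3 samples of DKO1, a derivative of the line in which DNMT1 and DNMT3B were knocked out, and in 3 samples of the parental line, called WT here. Both lines had the same serum-containing medium, and the labels name no infection, interferon or drug in either group. The DKO1 samples all represent a single derived line, so the loss of the targeted genes and any other difference between the lines cannot be told apart. Nothing in the labels says whether replicates were grown apart, and the replicate error behind each p-value may therefore be technical only.

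Interferons are secreted proteins that signal through cell-surface receptors, the kinases JAK1 and TYK2 and transcription factors that include STAT2 and IRF9, which act at an element called the interferon-stimulated response element and switch on antiviral genes. The products act at many steps of a viral life cycle, from uncoating and genome replication to the release of particles. In epithelial cells these genes are low at rest and rise when nucleic acid sensors or interferon receptors are engaged. DNMT1 maintains DNA methylation and DNMT3B adds it, and the comparison asks which transcripts differ between the line with both genes targeted and its parent.

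Values are TPM, a relative transcript abundance per length that can be compared between genes. A gene was tested if 3 or more of the 6 samples reached 1 TPM, using limma on log2(TPM + 1) and Benjamini-Hochberg adjustment over all 13604 tested genes and a call at an adjusted p below 0.05. Log2 fold changes are DKO1 minus WT on that scale, where the added 1 shrinks the change of genes near or below 1 TPM. DNMT1 averaged 36.2 ± 9.17 TPM in DKO1 and 242 ± 9.81 TPM in WT (SD, n = 3 each; adjusted p = 3.59e-05), and DNMT3B 4.42 ± 0.75 and 7.36 ± 0.76 TPM (adjusted p = 0.03). The DNMT3B call was lost in 5 of 14 alternative settings (adjusted p up to 0.11). Of 10 tested epithelial markers CDH1, ELF3, CLDN4 and ESRP1 were called higher and 0 lower. Over all tested genes 18.8% were called higher and 9.6% lower. Of the 4 called epithelial markers, 1 had no WT sample at 1 TPM and passed the filter through its DKO1 values. Of the 9 tested with a WT sample at 1 TPM 3 were called higher, against 12.2% of all tested genes of that kind. The list of 12 epithelial markers summed to 787 to 1034 TPM in DKO1 and 991 to 1244 TPM in WT. EPCAM lay between 371 and 500 TPM in DKO1 and between 457 and 536 TPM in WT, and KRT8 averaged 219 ± 66.3 TPM in DKO1 and 382 ± 91.9 TPM in WT (adjusted p = 0.0543). Of 18 blood and immune markers, which include genes of plasmacytoid dendritic cells, 3 were tested and 2, CD3D and LYZ, were called higher. Both had no WT sample at 1 TPM and passed the filter through their DKO1 values. The 1 tested marker with a WT sample at 1 TPM was not called. The summed level of the 18 ranged from 10.0 to 13.1 TPM in DKO1 and from 1.47 to 2.07 TPM in WT. Of the 18, 3 (SPI1, NKG7 and LILRA4) were listed at 0 in all 6 samples. For 6 of the 18 every DKO1 value lay above every WT value, and for 1 below. The share above was 26% over all human rows above 0 in any sample. PTPRC was at 0.43 to 0.61 TPM in DKO1 and listed at 0 in WT. No gene of the 10 matched fibroblast and endothelial markers was tested, and their sum was 3.81 to 4.29 TPM in DKO1 and 1.57 to 1.96 TPM in WT. The part of these markers in the results was not tested.

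All 10 transcripts were higher in every DKO1 sample than in any WT sample. Together they summed to 286, 184 and 246 TPM in DKO1 replicates 1, 2 and 3, against 22.95, 16.1 and 16.1 TPM in the WT replicates. The 9 members that passed the filter were each called higher, and IFI44L, at 0.78 TPM at most, was not tested. Among all tested genes 18.8% were called higher and 9.6% lower, and for 27.5% every DKO1 value lay above every WT value (26% of the 29487 human rows above 0 in any sample). The members' count is a description, because 5 of the 9 tested ones had no WT sample at 1 TPM and passed through their DKO1 values. The other 4, BST2, IFI6, IFI44 and IFI27, reached 1 TPM in at least 1 WT sample and were called too. Among all tested genes of that kind 12.2% were called higher. IFI44 and IFI27 reached 1 TPM in only 2 and 1 WT samples, so they also needed DKO1 values to pass. BST2 and IFI6 reached 1 TPM in all 3 WT samples. Without a filter the median log2 fold change of the 10 members was 2.81, against 0.06 over the 29487 genes. RNA came from whole cultures, so a larger share of expressing cells and more RNA per cell cannot be told apart.

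**Figure D1:**
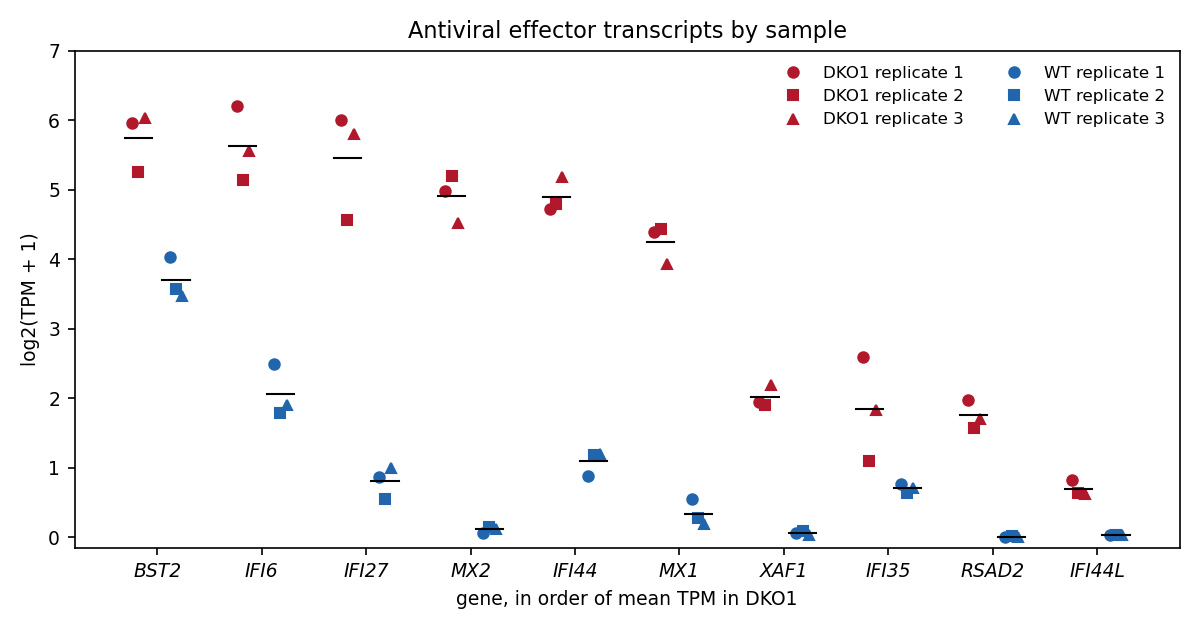
Each point is 1 sample, given as log2(TPM + 1) on the vertical axis, for the 10 genes in order of their mean TPM in DKO1; DKO1 is red and drawn left of WT in blue, symbols mark the replicate, and black lines are means of 3. No gene has overlapping groups, and IFI35 has the smallest gap, from 1.14 TPM in DKO1 replicate 2 to 0.70 TPM in WT replicate 1.

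MX1 and MX2 encode dynamin-like GTPases that assemble on viral nucleoproteins or capsids, MX1 known for restricting influenza viruses and MX2 for restricting HIV and herpesviruses. MX1 (ENSG00000157601.9, chromosome 21) was at 20.0, 20.6 and 14.3 TPM in DKO1 replicates 1, 2 and 3, against 0.47, 0.21 and 0.14 TPM in WT. MX2 (ENSG00000183486.8, chromosome 21) was at 30.7, 35.9 and 22.03 TPM in DKO1, against 0.05, 0.11 and 0.09 TPM in WT. Both were close to silent in WT, and both were lowest in replicate 3 within DKO1. The log2 fold change was 3.91 for MX1 (SE 0.20, adjusted p = 1.53e-05) and 4.79 for MX2 (SE 0.20, 95% confidence interval 4.32 to 5.26, adjusted p = 8.55e-06). By log2 fold change MX2 ranked 22 and MX1 57 of the 13604 tested genes. The level of MX2 was 1.54, 1.74 and 1.54 times that of MX1 in the DKO1 samples. MX2 was the higher of the pair in every DKO1 sample and the lower in every WT sample, where both were below 0.5 TPM and no ratio is given.

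IFI6 and IFI27 encode small hydrophobic proteins of the same family, found at the endoplasmic reticulum and mitochondria, and IFI6 is known for blocking the replication compartments of flaviviruses. IFI6 (ENSG00000126709.10, chromosome 1) was at 73.0, 34.2 and 46.1 TPM in DKO1, against 4.64, 2.47 and 2.73 TPM in WT, 15.6-fold higher by the means (log2 fold change 3.57, SE 0.31, adjusted p = 0.000146). IFI27 (ENSG00000165949.8, chromosome 14) was at 63.2, 22.6 and 54.6 TPM in DKO1, against 0.82, 0.47 and 1.00 TPM in WT, 61.3-fold higher (log2 fold change 4.65, SE 0.37, adjusted p = 0.000104). Their DKO1 levels overlapped, while in WT IFI6 was 2.73 to 5.66 times as high as IFI27. In both genotypes replicate 2 was the lowest sample for each gene.

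IFI44 and IFI44L are neighbouring genes of a GTP-binding protein family whose antiviral action is less well understood. IFI44 (ENSG00000137965.6, chromosome 1) was at 25.4, 26.8 and 35.5 TPM in DKO1, against 0.85, 1.28 and 1.30 TPM in WT, 25.6-fold higher (log2 fold change 3.81, SE 0.19, adjusted p = 1.46e-05). IFI44L (ENSG00000137959.11, chromosome 1) was at 0.78, 0.55 and 0.54 TPM in DKO1, against 0.02 TPM in each WT sample. IFI44L thus stayed below 1 TPM in both groups although its groups did not overlap. In a fit without the filter its log2 fold change was 0.67 (SE 0.07, adjusted p = 0.00224). The level of IFI44 was 32.6 to 65.7 times that of IFI44L in DKO1; no ratio is given for WT, where IFI44L is near the 2-decimal rounding of the table.

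BST2, or tetherin, holds budding enveloped particles at the cell surface, and RSAD2, or viperin, is a radical SAM enzyme that makes a chain-terminating nucleotide from CTP. BST2 (ENSG00000130303.8, chromosome 19) was at 61.5, 37.3 and 64.3 TPM in DKO1, against 15.4, 10.9 and 10.2 TPM in WT, 4.48-fold higher (log2 fold change 2.06, SE 0.25, adjusted p = 0.000732). It was the member with the highest level in WT, and the only one above 5 TPM in every WT sample. RSAD2 (ENSG00000134321.7, chromosome 2) was at 2.94, 1.99 and 2.26 TPM in DKO1 and listed at 0, 0.01 and 0 TPM in WT (log2 fold change 1.75, SE 0.15, adjusted p = 0.00013). CMPK2, which lies beside RSAD2 on the opposite strand and encodes a mitochondrial nucleotide kinase, was at 4.89, 5.25 and 4 TPM in DKO1, against 0.10, 0.09 and 0.07 TPM in WT (log2 fold change 2.39, SE 0.14, adjusted p = 3.03e-05). The gene models of RSAD2 and CMPK2 overlap, and the strand setting of the authors' counting is not given in the sources used here; reads of the shared stretch cannot be assigned with certainty.

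XAF1 binds the apoptosis inhibitor XIAP and promotes cell death, and IFI35 is a leucine zipper protein that pairs with NMI. XAF1 (ENSG00000132530.12, chromosome 17) was at 2.87, 2.74 and 3.59 TPM in DKO1, against 0.04, 0.07 and 0.02 TPM in WT (log2 fold change 1.96, SE 0.14, adjusted p = 6.05e-05). Its target XIAP was at 14.2, 24.6 and 16.0 TPM in DKO1, against 19.7, 23.2 and 22.5 TPM in WT, and was not called (adjusted p = 0.363); without DKO1 replicate 2 it was called lower (log2 fold change −0.50, adjusted p = 0.0422). IFI35 (ENSG00000068079.3, chromosome 17) was at 5.07, 1.14 and 2.56 TPM in DKO1, against 0.70, 0.56 and 0.64 TPM in WT (log2 fold change 1.14, SE 0.34, adjusted p = 0.0445). IFI35 had the widest spread in DKO1, with its highest sample 4.45 times its lowest. Its call was lost in 7 of 13 alternative settings, with an adjusted p of 0.0924 without the filter, 0.21 after quantile normalization, 0.0739 and 0.0751 without DKO1 replicate 1 or 3, and 0.106, 0.116 and 0.122 without WT replicate 1, 2 or 3. With the replicate number as a block it was kept (adjusted p = 0.0175). The partner NMI was called higher, at 30.5 ± 4.29 TPM in DKO1 and 17.4 ± 2.52 TPM in WT (log2 fold change 0.78, SE 0.16, adjusted p = 0.0109), and lost its call without WT replicate 1 or 3.

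By mean TPM in DKO1 the order was BST2, IFI6, IFI27, MX2, IFI44, MX1, XAF1, IFI35, RSAD2 and IFI44L. From BST2 down to IFI44 the ranges of neighbours in this order overlapped, and whether their levels differ was not tested. IFI44, at 25.4 TPM or above, stood clear of MX1, at 20.6 TPM or below, and MX1 stood clear of XAF1, at 3.59 TPM or below. XAF1 and IFI35 overlapped, as did IFI35 and RSAD2, and RSAD2 stood clear of IFI44L. In WT the order was BST2, IFI6, IFI44, IFI27, IFI35, MX1, MX2, XAF1, IFI44L and RSAD2. In WT the ranges of IFI44 and IFI27, of IFI27 and IFI35, of MX2 and XAF1, and of XAF1 and IFI44L overlapped. MX2 thus held position 4 in DKO1 and position 7 in WT.

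The spread among DKO1 samples differed between members, and replicate 2 was well below the others for IFI27, IFI35, IFI6 and BST2. Replicate 2 was the lowest DKO1 sample for IFI6, IFI27, IFI35, BST2, XAF1 and RSAD2, and the highest for MX1 and MX2. As a log2 ratio of TPM + 1 to the mean of replicates 1 and 3, replicate 2 stood at −1.34 for IFI27, −1.17 for IFI35, −0.78 for IFI6 and −0.74 for BST2, and at 0.25 for MX1 and 0.43 for MX2. The longest annotated transcripts of IFI35, BST2, IFI6 and IFI27 have GC contents of 58.8%, 57.3%, 56.1% and 50.5%, against 37.8% for IFI44L and 39.1% for IFI44, whose replicate 2 stood at −0.10 and −0.18. MX1 and MX2, at 52.4% and 48.8%, went the other way from IFI27 at a like GC content. Across all tested genes the same measure had a median of −0.50 in the 4408 genes with the highest GC content and 0.09 in the 4409 with the lowest, and its Spearman correlation with GC content was −0.52 over 13225 genes, which share the same libraries and are not independent. Replicate 2 of WT had a median of −0.21 in the same GC-rich genes and 0.12 in the GC-poor ones. Across genes the fold change itself also moved with GC content, with a median log2 fold change of 0.20 in the GC-rich and −0.16 in the GC-poor genes. Without DKO1 replicate 2 all 9 tested members were called higher, and the part of base composition in the fold changes was not tested.

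**Figure D2:**
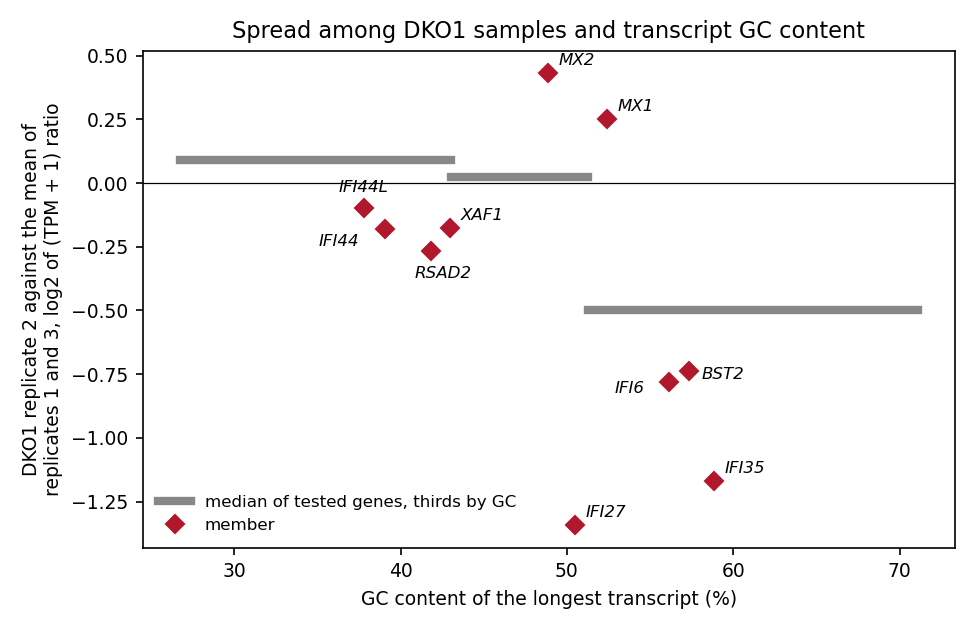
The level of each gene in DKO1 replicate 2 against the mean of DKO1 replicates 1 and 3 (vertical axis, log2 ratio of TPM + 1) is plotted against the GC content of its longest transcript in percent (horizontal axis); red diamonds are the 10 genes and grey bars are medians of the tested genes in 3 groups of like size by GC content. IFI27, IFI35, IFI6 and BST2 lie lowest, at −1.34 to −0.74, and the grey bar of the most GC-rich group lies at −0.50.

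The promoter windows were searched for interferon response elements, which a choice of interferon-induced genes would itself favour. The sequences shown are RefSeq windows of 300 bases on GRCh38.p14, from 250 bases before to 50 bases after an annotated start. They are printed 5′ to 3′ for the gene's strand, and were chosen to span windows with no CpG dinucleotide (the site that the DNMT enzymes methylate) and windows rich in it. Capitals mark matches on either strand to the core of the interferon-stimulated response element, GAAA and GAAA with any 2 bases between them, and to GAAANGAAA, the same repeat with 1 base (N) between, which was added after the sequences were seen. Matches to the 2 motifs can overlap, and then form 1 run of capitals.
MX1, chr21:41420308-41420607, plus strand: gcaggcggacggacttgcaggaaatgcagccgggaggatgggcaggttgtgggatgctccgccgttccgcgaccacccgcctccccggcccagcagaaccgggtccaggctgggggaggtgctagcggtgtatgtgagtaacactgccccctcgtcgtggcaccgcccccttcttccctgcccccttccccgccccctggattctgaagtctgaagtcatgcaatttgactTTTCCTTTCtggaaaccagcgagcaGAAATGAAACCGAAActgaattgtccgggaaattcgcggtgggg
IFI6, chr1:27672143-27672442, minus strand: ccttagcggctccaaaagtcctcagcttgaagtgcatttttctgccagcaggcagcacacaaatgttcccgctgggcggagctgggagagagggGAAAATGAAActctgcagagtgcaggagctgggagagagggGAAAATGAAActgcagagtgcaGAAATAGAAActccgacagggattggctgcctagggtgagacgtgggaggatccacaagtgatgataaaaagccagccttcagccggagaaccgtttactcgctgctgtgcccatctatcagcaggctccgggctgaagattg
IFI44, chr1:78649539-78649838, plus strand: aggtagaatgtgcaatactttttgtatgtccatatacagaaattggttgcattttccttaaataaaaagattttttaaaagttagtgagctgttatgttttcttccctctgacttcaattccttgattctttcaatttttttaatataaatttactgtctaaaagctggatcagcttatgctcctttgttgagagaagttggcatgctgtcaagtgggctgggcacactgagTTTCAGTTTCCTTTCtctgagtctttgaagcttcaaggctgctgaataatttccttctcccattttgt
BST2, chr19:17405581-17405880, minus strand: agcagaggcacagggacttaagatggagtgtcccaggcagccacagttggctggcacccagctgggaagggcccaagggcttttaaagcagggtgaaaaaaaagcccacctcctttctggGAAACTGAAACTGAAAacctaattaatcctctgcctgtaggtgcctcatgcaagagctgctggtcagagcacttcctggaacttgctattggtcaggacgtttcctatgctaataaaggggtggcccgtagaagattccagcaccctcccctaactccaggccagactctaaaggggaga
RSAD2, chr2:6865635-6865934, plus strand: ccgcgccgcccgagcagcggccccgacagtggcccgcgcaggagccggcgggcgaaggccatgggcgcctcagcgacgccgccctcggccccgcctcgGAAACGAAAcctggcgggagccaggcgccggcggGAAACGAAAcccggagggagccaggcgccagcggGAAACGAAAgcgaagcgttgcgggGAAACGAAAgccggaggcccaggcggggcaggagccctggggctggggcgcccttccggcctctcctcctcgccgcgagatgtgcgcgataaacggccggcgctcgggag
RSAD2, chr2:6877527-6877826, plus strand: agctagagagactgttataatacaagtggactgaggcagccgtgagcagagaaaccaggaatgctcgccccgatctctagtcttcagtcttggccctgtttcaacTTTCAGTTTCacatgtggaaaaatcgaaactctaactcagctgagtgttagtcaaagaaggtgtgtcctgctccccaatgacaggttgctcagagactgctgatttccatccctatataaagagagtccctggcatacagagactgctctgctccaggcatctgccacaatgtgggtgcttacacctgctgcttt

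Windows were matched for 9 of the 10 members, 15 windows in all, MX2 being the exception. The repeat with a spacer of 2 bases occurred in at least 1 window of 7 of these 9 genes, and in 10 of the 15 windows, against 3.57% of all 35116 windows and 4.38% of 27305 genes. IFI6 held 3 matches, IFI44L and BST2 2 each, both IFI27 windows 2 each and both IFI44 windows 1 each; windows of IFI27 and of IFI44 overlap. XAF1 and IFI35 had no such match but 1 GAAANGAAA match each, and the first RSAD2 window had 4. RSAD2 held 1 match to the longer repeat in the window at position 6877527, and 2 of the 3 MX1 windows held 1 each. The spacing of 1 base occurred in a window of 5 of the 9 genes and of 3.87% of all genes. It was added after these same sequences were seen, so the 2 shares are a description only. TTCNNNGAA, the element bound by STAT dimers, occurred in a window of 4 of the 9 genes, against 9.38% of all genes. A match is a description of letters and not a measured binding site.

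CpG numbers ranged from 0 to 45 per window among the members. Their median was 6, against a median of 14 and quartiles of 4 and 28 over all windows. The windows of IFI44 and IFI44L held 0, a number found in 3.96% of all windows, and those of BST2 and IFI6 held 2 and 9. The MX1 windows held 20, 30 and 6. The RSAD2 windows held 45 and 4, and 97.1% of all windows held no more than 45. The first RSAD2 window overlaps windows of CMPK2 on the other strand, which held 38 and 41. DNA methylation itself was not analysed here.

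**Figure D3:**
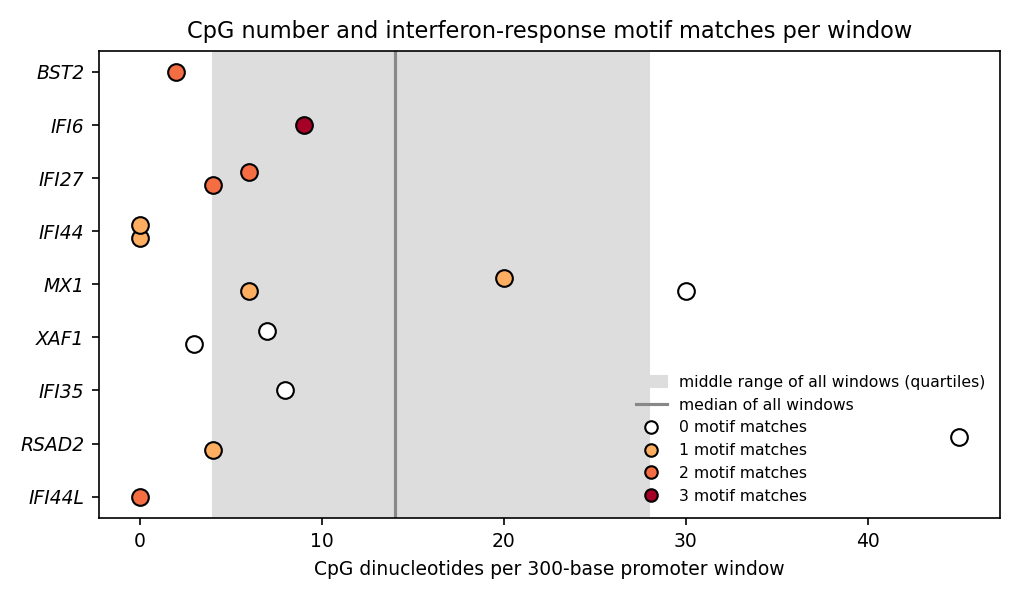
Each circle is a 300-base RefSeq promoter window of the 9 members with a window, placed by its number of CpG dinucleotides (horizontal axis) and coloured by its number of matches to the 10-base interferon response motif; the grey band covers the quartiles of all windows (4 to 28) and the line their median (14). IFI44 and IFI44L sit at 0, and the window with 45 belongs to RSAD2.

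Other effectors of the same pathway moved in the same direction in most cases. Of 61 such genes 46 were tested, of which 34 were called higher, 1 lower and 11 not called (background 18.8% higher and 9.6% lower). Of these 46, 11 had no WT sample at 1 TPM and passed the filter through their DKO1 values. Of the other 35, 23 were called higher, against the 12.2% among all tested genes of that kind. IFIT3, among the 35, reached 1 TPM in only 2 WT samples and also needed its DKO1 values to pass. Without a filter the median log2 fold change of the 61 genes was 0.78, against 2.81 over the 10 members and 0.06 over all genes. IFIT2, which binds viral RNA, was at 19.7, 19.0 and 35.3 TPM in DKO1, against 0.32, 0.29 and 0.52 TPM in WT (log2 fold change 4.17, SE 0.25, adjusted p = 3.08e-05), and its relative IFIT1 had the largest log2 fold change of this list, 4.81 (SE 0.14). OAS1, which makes the activator of RNase L, was at 27.0, 14.4 and 12.9 TPM in DKO1, against 0.35, 0.08 and 0.23 TPM in WT (log2 fold change 3.90, SE 0.28, adjusted p = 6.28e-05). The lower call was IFIT5 (log2 fold change −0.63), which was not called in 5 of the 6 fits that leave out 1 sample (adjusted p up to 0.103). Among the members, MX2 and IFI27 had log2 fold changes near that of IFIT1, at 4.79 and 4.65.

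**Figure D4:**
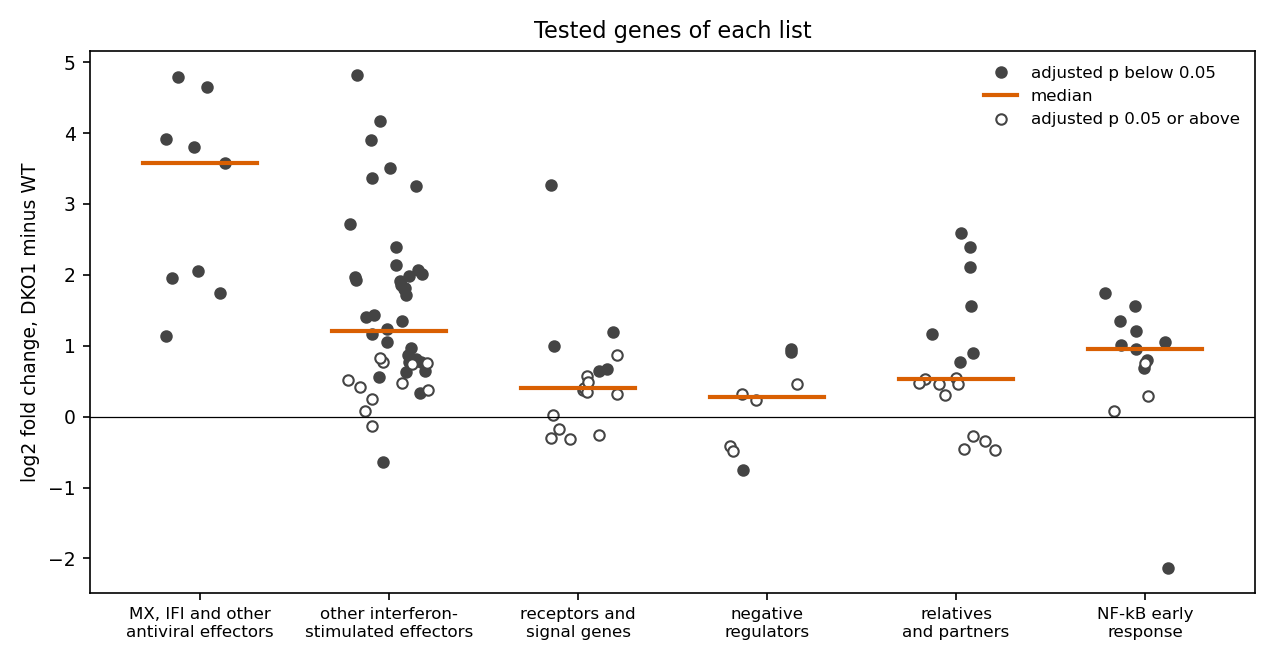
Each point is a tested gene, placed by its log2 fold change (DKO1 minus WT, on log2(TPM + 1)) in columns for the members and 5 other lists; filled points have an adjusted p below 0.05 and orange lines are medians. The median is 3.57 for the 9 tested members, 1.2 for the other effectors and 0.41 for receptors and signal genes.

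Upstream, the transcription factor genes IRF9 and STAT2 rose, while no receptor gene was called. Of 17 tested receptor and signalling genes 5 were called higher, 0 lower and 12 not called (background 18.8% higher and 9.6% lower). All 17 had a WT sample at 1 TPM, and 12.2% of all tested genes of that kind were called higher. Of the 17, 3 were higher without WT replicate 3, where JAK1 and STAT3 had adjusted p-values of 0.052 and 0.055. Quantile normalization called 1 lower. IRF9 was at 58.1, 36.1 and 52.2 TPM in DKO1, against 3.93, 4.11 and 4.16 TPM in WT (log2 fold change 3.27, SE 0.19, adjusted p = 2.81e-05). STAT2 averaged 27.4 ± 4.84 TPM in DKO1 and 13.1 ± 1.56 TPM in WT (log2 fold change 1.00, SE 0.17, adjusted p = 0.00417). The receptor gene IFNAR1 had a log2 fold change of −0.17 (SE 0.19, adjusted p = 0.558), and IFNAR2 one of 0.38 (SE 0.15, adjusted p = 0.0981; 0.049 without DKO1 replicate 3). None of the 21 ligand genes was tested, and 13 were listed at 0 in all 6 samples. IFNB1, named after its values were seen, was at 0.53, 0.44 and 0.26 TPM in DKO1 and listed at 0 in WT, and IFNL1 was at 0.36, 0.16 and 0.10 TPM in DKO1 and listed at 0 in WT. The ligand levels are thus below 1 TPM, and IFNE was the exception with 1.18 TPM in DKO1 replicate 3. Of 8 tested negative regulators, USP18 and SOCS3 were called higher (log2 fold changes 0.96 and 0.91) and the phosphatase gene PTPN11 lower (−0.75). The background was again 18.8% higher and 9.6% lower, so these few genes show no clear departure from it. With the replicate number as a block 2 negative regulators were called lower. PTPN11 was not called without WT replicate 2 or 3, and SOCS3 was not called after quantile normalization.

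Relatives and partners of the members had a median log2 fold change of 0.54. Of 17 such genes 7 were called higher, 2 of them with no WT sample at 1 TPM, and 0 lower (1 lower with the replicate block). The background was 18.8% higher and 9.6% lower. Of the 15 with a WT sample at 1 TPM 5 were called higher, against 12.2% of all tested genes of that kind. NMI and CMPK2 are also among the other effectors. The called ones with the largest change were IFIH1, an RNA sensor, with a log2 fold change of 2.59 (SE 0.14, adjusted p = 2.21e-05), CMPK2, and IFI16, a DNA sensor, with 2.11 (SE 0.26, adjusted p = 0.00081). The dynamin relatives of the MX proteins, DNM1, DNM2, DNM3, DNM1L and OPA1, had log2 fold changes from −0.47 to 0.54, and none was called. Without WT replicate 1, 4 genes of the list were called higher, and without DKO1 replicate 3, 3 were called lower. Of 13 tested early targets of NF-kB, another factor of innate responses, 9 were called higher, 2 of them with no WT sample at 1 TPM, and 1 lower. The same background of 18.8% and 9.6% applies. Of the 11 with a WT sample at 1 TPM 7 were called higher, against 12.2%. Quantile normalization called 4 of the 13 higher. CXCL1, a chemokine, BIRC3 and the inhibitor NFKBIA had log2 fold changes of 1.74, 1.56 and 1.35. BIRC3 is also among the relatives and partners, and is counted as higher in both lists. TNFAIP3, which restrains NF-kB, was at 4.30, 4.73 and 4.38 TPM in DKO1, against 24.2, 21.6 and 23.5 TPM in WT (log2 fold change −2.14, SE 0.13, adjusted p = 3.5e-05).

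The genes next to the members on the chromosome were examined to see how far the differences extended. Of 16 distinct nearest tested genes that are not members, 9 were called higher (background 18.8%), 0 lower and 7 not called. FAM3B, ADGRL2, CMPK2 and GRASLND had no WT sample at 1 TPM and passed the filter through their DKO1 values. Of the other 12, C17orf100 and RIPK4 reached 1 TPM in only 2 WT samples and also needed DKO1 values. Among these 12, 5 were called higher, against the 12.2% given above for genes of that kind. The count over all 16 was 5 without DKO1 replicate 1 or WT replicate 1 and 4 without WT replicate 2, and with the replicate block 1 was called lower. FAM3B, a secreted cytokine-like protein next to MX2, was at 9.70, 8.01 and 7.71 TPM in DKO1, against 0, 0 and 0.01 TPM in WT (log2 fold change 3.23, SE 0.15, adjusted p = 1.11e-05). BACE2, the next tested gene beyond FAM3B and named after its values were seen, was also called higher (log2 fold change 0.91, SE 0.16, adjusted p = 0.00457), so that BACE2, FAM3B, MX2 and MX1 were 4 adjacent tested genes called higher. RIPK4, on the far side of MX1, was not called (log2 fold change 0.44, adjusted p = 0.066). After rescaling without mitochondrial and spike-in rows it was called higher (log2 fold change 0.56, adjusted p = 0.0435). ADGRL2, an adhesion receptor next to IFI44, was listed at 0 in WT and was at 3.54, 3.68 and 3.41 TPM in DKO1 (log2 fold change 2.18, SE 0.12, adjusted p = 2.34e-05). The noncoding RNA GRASLND, on the other side of RSAD2 from CMPK2, rose to 3.66 ± 0.39 TPM in DKO1, against 0.76 ± 0.15 TPM in WT (adjusted p = 0.000378). IFI27 lies between its relatives IFI27L1 and IFI27L2, which averaged 10.4 ± 3.87 and 19.7 ± 6.91 TPM in DKO1, against 4.86 ± 0.37 and 8.13 ± 2.39 TPM in WT (adjusted p = 0.0389 and 0.0262). These calls were lost in 7 and 5 of 14 alternative settings (adjusted p up to 0.118 and 0.087), and the ratios of the means were 2.14 and 2.43, against 61.3 for IFI27. C17orf100 beside XAF1 and FAM76A beside IFI6 lost their calls in 7 and 8 settings (adjusted p up to 0.129 and 0.2). The antisense gene ENSG00000273338, beside IFI44L and IFI44, was called higher (log2 fold change 0.78, SE 0.20, adjusted p = 0.0233). Its call was lost in 3 settings (adjusted p up to 0.0832). Each of the 5 calls among the 12 neighbours with a WT sample at 1 TPM was thus lost in some settings. Neither neighbour of BST2 was called, GTPBP3 and MVB12A having log2 fold changes of −0.14 and 0.02 (adjusted p = 0.727 and 0.952).

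**Figure D5:**
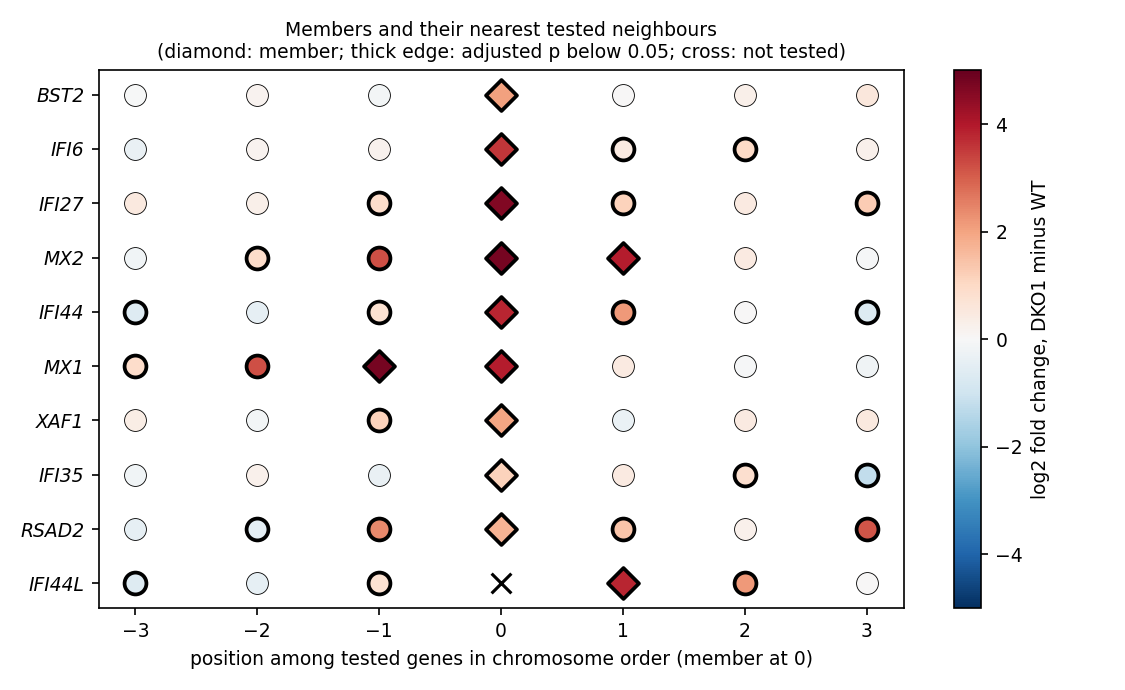
For each member (row, at position 0) the 3 nearest tested genes on either side are drawn in chromosome order and coloured by log2 fold change (DKO1 minus WT); diamonds are members, thick edges mark an adjusted p below 0.05, and the cross is IFI44L, which was not tested. Around BST2 no neighbour is called, while MX2 lies between MX1 and FAM3B, which has a log2 fold change of 3.23.

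Annotated antisense genes overlap MX1 and IFI6, and both were listed at 0 in all 6 samples. The genes with the pattern most like the members' mean were sought among all tested genes by Euclidean distance over the 6 samples, on log2(TPM + 1) minus the WT mean. The mean profile of the 9 tested members was 3.33, 2.79 and 3.10 in DKO1 replicates 1, 2 and 3. The nearest genes were MAGEB16, CES1, EXO5, STMN2 and FAM50B, at distances of 0.25, 0.25, 0.27, 0.29 and 0.31. Each was below 0.5 TPM in mean WT level and between 6.94 and 9.67 TPM in mean DKO1 level. Of the 50 nearest genes 2, IRF9 and OASL, belong to the effector and signalling lists, which hold 63 of the 13604 tested genes. The measure follows the size of the difference between genotypes and the spread of the DKO1 samples, and is a description over 6 samples.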

How the data were processed

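RNA was extracted with TRIzol and made into stranded messenger RNA libraries for an Illumina HiSeq instrument, per the labels' protocols. The submitters' processing notes name STAR 2.5.3a, edgeR 3.12.1, RSEM 1.2.21, Trim Galore 0.4.0 and FastQC, and builds hg19 and GRCh37, with no role or order. The deposited values are TPM per gene, rounded by the authors to 2 decimals; each column has the same sum over its 57897 rows, of which 77 have names in a spike-in format and were not tested. Sequencing depth cannot be read from TPM and is unknown, and no counting intervals are given. Mitochondrial transcripts took 21.2% to 27.7% of TPM in DKO1 and 19.7% to 20.1% in WT.

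Symbols were matched by Ensembl identifier, version removed. Chromosome order, overlaps and transcript GC content (97.2% of tested genes) came from GENCODE 29 on GRCh38, a build other than the submitters', so none of its coordinates are used for the deposited values. limma 3.58.1 in R 4.3.3 had genotype as its only term and a variance trend, after a check on simulated data. Ratios are given where both means were at least 0.5 TPM. Members and lists were chosen with earlier results of these data known. Named genes are the members, the targeted genes, up to 3 called genes per direction and list, the nearest tested neighbours and the 5 genes nearest in profile; others are marked or are partners and relatives of members.

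Same-numbered samples deviated together from their group means (correlations across genes of 0.35, 0.57 and 0.27 for replicates 1, 2 and 3). The reported fit does not use this pairing, so its p-values and counts leave the shared variation in the error. The fit with a replicate block, which takes the numbers to pair the samples, was an alternative. Further alternatives left out each sample, used quantile normalization, median-ratio scaling or rescaling without mitochondrial and spike-in rows, dropped the variance trend, dropped the filter or raised it to a mean of 5 TPM, and set the pseudocount to 0.1.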

Additional observations from a re-analysis of the deposited data

How the results depend on the processing

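Of 123 results for the 9 tested members under the alternatives, 116 kept direction and call, 7 lost the call (all IFI35) and 0 reversed. The other 8 tested members were called in every alternative in which they were tested, with log2 fold changes from 1.12 (RSAD2, quantile normalization) to 7.32 (MX2, pseudocount of 0.1). Over all tested genes the median was −0.06 after quantile normalization, against 0.07 as reported. The replicate block kept 9 members higher and changed no member's call; it called 40 other effectors, 7 receptor and signal genes and 3053 of all tested genes higher and 1817 lower, against 34, 5, 2558 and 1306 without it. All tested genes called higher numbered 4400 without a filter, 1145 above a mean of 5 TPM and 1705 (without WT replicate 3) to 2842 when a sample was left out; those called lower numbered 524 (without WT replicate 2) to 2079 (without DKO1 replicate 3), with 842 without DKO1 replicate 1 and 604 and 550 without WT replicates 1 and 3. Other effectors numbered 0 to 1 lower and receptor and signal genes 3 to 7 higher with a sample left out, and 1 receptor or signal gene was lower after quantile normalization. Above a mean of 5 TPM, 1 negative regulator, 4 relatives, 4 NF-kB targets and 4 neighbours were called higher.

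Sign changes occurred among 5 genes that were not called. The log2 fold change was −0.0059 for RIPK4 and −0.37 for MVB12A after quantile normalization, and −0.034 for MVB12A with median-ratio scaling. With a sample left out it ranged from −0.51 to 0.91 for the pseudogene ENSG00000235912 beside IFI6, from −0.40 to 0.073 for GTPBP3, from −0.22 to 0.16 for MVB12A and from −0.063 to 0.85 for TYK2. The cause was not tested. Unknown depth limits the members near 0 in WT, for which no detection floor can be given.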
